A study of Mus musculus with 8 samples.

Results

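The 10 genes described here are markers of the macrophages that reside in the mouse heart: Csf1r, Cd68, Cd163, Mrc1, Adgre1, Lyve1, Cx3cr1, Cd14, Fcgr3 and Mertk. They were picked by name, as the rows of the gene count table that carry these symbols, in a choice made with earlier results of these data known. The 10 markers stand among 43346 genes listed, and all 10 were among the 16111 genes that passed the filter on low counts. For 9 of them the table uses the symbol given here, while Adgre1 is listed under its older symbol Emr1 and was matched by its gene identifier.

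Ventricular RNA came from male C57BL/6 mice that received an injection at 7 weeks of age and were examined 14 days later. The 4 tumor-bearing mice (LLC1 1-2, 1-3, 1-5 and 2-2) were injected with 1000000 LLC1 cells, a mouse lung adenocarcinoma line, and the 4 control mice (PBS 1-1, 1-3, 2-1 and 2-5) with the PBS vehicle. All 8 mice were of the same strain and sex with no altered allele named, the tumor came from a single implanted line, and the ventricle was sequenced as a whole tissue rather than as sorted macrophages. Libraries held 15342214 to 19747596 gene counts in the LLC1 group and 12480706 to 16192158 in the PBS group, so that 1 CPM (a count per 1000000 counts of the scaled library) stood for 11.7 to 19.9 counts. The 8 cardiomyocyte markers summed to 95247 to 101770.4 CPM in the LLC1 mice and to 85895 to 88426 CPM in the PBS mice. The groups did not overlap in this sum, and its part in the marker values was not tested.

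Resident cardiac macrophages are seeded before birth and maintained largely by local division, which depends on signals through the colony stimulating factor receptor encoded by Csf1r. They engulf dying cells and the debris that cardiomyocytes expel, take up glycoproteins and hemoglobin through scavenger receptors, and sample bacterial products and antibody complexes. Other macrophages of the heart are replenished from blood monocytes that carry the chemokine receptor Ccr2, and several of the markers, among them Cd14, Cd68 and Csf1r, are made by both kinds of macrophage.

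In the tumor-bearing mice 4 of the 10 markers were called lower and 0 were called higher. These were the fractalkine receptor Cx3cr1, at 0.473 of its PBS level by the fitted fold change, the lipopolysaccharide co-receptor Cd14 at 0.688, the mannose receptor Mrc1 at 0.749 and the Fc gamma receptor Fcgr3 at 0.760. A call is an FDR under 0.05 by the edgeR quasi-likelihood test over all genes tested, by which 4.61% of all genes were called lower and 4.12% higher (8.73% in either direction), against 4 and 0 of the 10 markers. The other 6 markers were not called, and their fitted log2 fold changes (LLC1 over PBS) lay between -0.53 and -0.06. All 10 log2 fold changes were below 0, as were 52.1% of those of all genes, and the median was -0.34 over the markers and -0.01 over all genes. In bulk tissue fewer macrophages, less of a transcript per macrophage and a change in other cells that carry the transcript cannot be told apart. The number called was 4 with upper-quartile or total-count scaling and all 10 log2 fold changes stayed below 0 under both, but it was 2 (Mrc1 and Fcgr3) with the first number of the mouse code as a covariate, 0 without LLC1 1-5 or without PBS 2-1 (5 markers were lower with an unadjusted p under 0.05 by edgeR in each, as were 11.0% and 12.3% of all genes), 1 without LLC1 1-2, 1-3 or 2-2, 2 without PBS 1-3, 3 without PBS 2-5 and 6 without PBS 1-1. The share of all genes called lower rose to 5.18% with the covariate and to 5.1% without PBS 2-5, where fewer markers were called. In the other fits it moved to 2.44% and 3.63% without LLC1 1-5 or PBS 2-1, to 2.58%, 2.18% and 2.95% without LLC1 1-2, 1-3 or 2-2, to 2.02% without PBS 1-3 and to 6.38% without PBS 1-1.

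**Figure D1:**
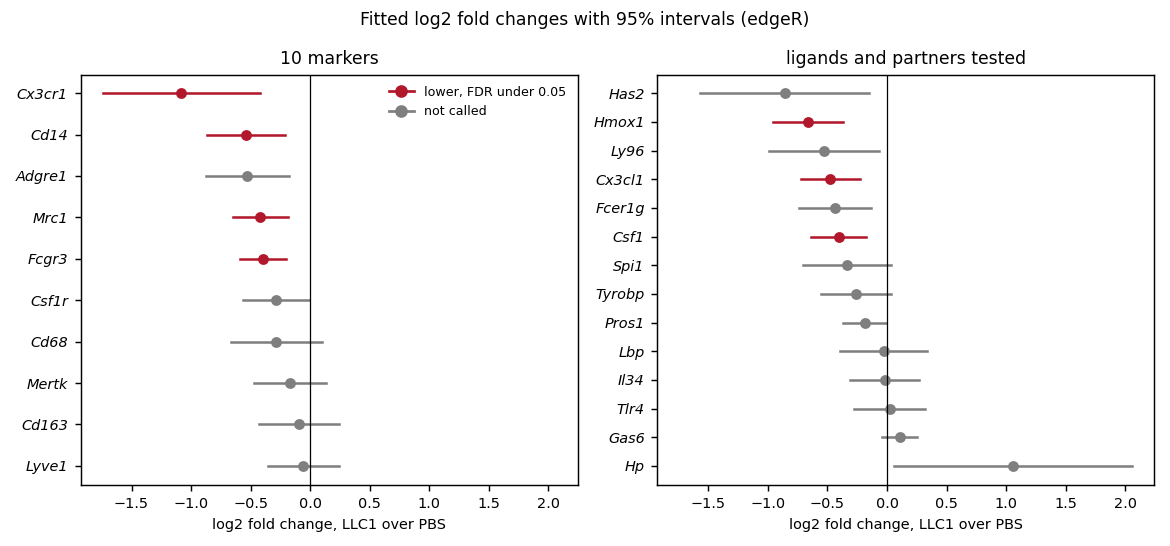
Fitted log2 fold changes (LLC1 over PBS, x axis) with their 95% intervals for the 10 markers (left) and for the 14 ligands and signaling partners tested (right), in red where the FDR by edgeR was under 0.05 and in gray otherwise. Cx3cr1, Cd14, Mrc1 and Fcgr3 are the 4 markers in red, and all 10 marker points lie left of 0.

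Stretches of DNA before a RefSeq start site of 3 markers are shown because 2 of these genes, Mrc1 and Fcgr3, were called lower under the most settings and the third, Cd163, was among the flattest. RefSeq promoters on build GRCm38.p6 were matched to 6 of the 10 markers (Fcgr3, Mrc1, Mertk, Cd163, Cx3cr1 and Cd68) and searched over the 250 bases before the listed start. The Fcgr3 start used is 1 of 2 in the table and lies inside the span of the gene given below, downstream of its 5′ end, and the whole Cx3cr1 window is covered by an annotated exon of Cx3cr1. Each is printed 5′ to 3′ on the strand of its gene, without bases that an annotated exon of the same gene covers, and capitals mark the PU box GAGGAA on either strand, the core of the site bound by the macrophage factor PU.1.
Mrc1, chr2:14229164-14229391, plus strand: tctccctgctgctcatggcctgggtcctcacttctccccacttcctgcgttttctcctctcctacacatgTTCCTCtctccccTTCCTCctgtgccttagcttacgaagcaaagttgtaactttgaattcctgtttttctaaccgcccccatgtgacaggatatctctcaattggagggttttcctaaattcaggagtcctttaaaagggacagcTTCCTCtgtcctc
Fcgr3, chr1:171059404-171059626, minus strand: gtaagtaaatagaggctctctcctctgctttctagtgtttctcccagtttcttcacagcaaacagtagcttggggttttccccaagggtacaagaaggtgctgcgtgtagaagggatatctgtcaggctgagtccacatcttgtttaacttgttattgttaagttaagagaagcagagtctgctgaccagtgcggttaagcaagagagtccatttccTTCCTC
Cd163, chr6:124304401-124304650, plus strand: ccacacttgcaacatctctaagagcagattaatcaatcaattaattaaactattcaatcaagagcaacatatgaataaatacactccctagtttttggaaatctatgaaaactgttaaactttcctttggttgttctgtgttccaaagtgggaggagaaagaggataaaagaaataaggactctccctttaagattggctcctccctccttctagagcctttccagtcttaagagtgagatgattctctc
Mrc1 held 3 PU boxes, which began 180, 167 and 35 bases before the start, and Fcgr3 held 1, which ended at the base next to the start. Cd68 also held 1, whereas Cd163, Mertk and Cx3cr1 held 0, so that 3 of 6 markers had the motif against 23.3% of 32851 promoters of this length. The C/EBP motif TTGCNNAA was found in Fcgr3 and Cd68 (9.56% of all promoters), the AP-1 motif TGACTCA in Cd68 (4.46%), the MAF motif TGCTGA in Fcgr3 (16.1%) and the IRF motif (GAAA, any 2 bases, GAAA) in 0 of the 6 (2.98%), each searched on both strands. No searched motif overlapped another in these promoters.

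Mrc1 (chr2:14229392-14332057 on mm10) encodes the mannose receptor CD206, a lectin that clears mannose-bearing glycoproteins. Its level was 23.9, 28.0, 22.6 and 21.8 CPM in LLC1 1-2, 1-3, 1-5 and 2-2 and 29.2, 28.7, 37.3 and 33.1 CPM in PBS 1-1, 1-3, 2-1 and 2-5. Every tumor-bearing mouse was below every PBS mouse, with LLC1 1-3 and PBS 1-3 closest to each other. The means were 24.1 ± 2.77 and 32.1 ± 3.98 CPM (SD, n = 4 in each group), with a log2 fold change of -0.42 (SE 0.10, 95% interval -0.65 to -0.19, FDR 0.0301 by edgeR) and an exact permutation p of 0.0286 (two-sided), the smallest that the 70 arrangements of the mice allow. The log2 fold change stayed between -0.50 and -0.34 when single mice were left out, but the FDR passed 0.05 without LLC1 1-2, 1-5 or 2-2 or without PBS 2-1.

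Fcgr3 (chr1:171051174-171064935) encodes the activating Fc gamma receptor III, which binds antibody complexes. It measured 13.6, 12.1, 12.7 and 12.6 CPM in the LLC1 mice 1-2, 1-3, 1-5 and 2-2 and 14.5, 16.97, 17.1 and 18.2 CPM in the PBS mice 1-1, 1-3, 2-1 and 2-5. The groups did not overlap, and the LLC1 mice were closer to each other than the PBS mice were. Its log2 fold change of -0.40 (SE 0.09, 95% interval -0.59 to -0.20, FDR 0.0205 by edgeR, exact permutation p = 0.0286) had the lowest FDR among the markers. Fcgr3 shares 509 bases at 96.5% identity with the inhibitory receptor gene Fcgr2b, so reads of one could in part have been counted to the other. Fcgr2b itself was called lower, at 10.9 ± 0.843 CPM against 17.4 ± 1.75 CPM (log2 fold change -0.68, FDR 0.00268 by edgeR). Without LLC1 1-3, 1-5 or 2-2 or without PBS 1-3 or 2-1 the FDR of Fcgr3 lay between 0.0508 and 0.0699.

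Cd14, on chromosome 18, encodes the protein that hands lipopolysaccharide to the receptor TLR4. The LLC1 mice 1-2, 1-3, 1-5 and 2-2 had 4.76, 4.21, 3.88 and 6.24 CPM, and the PBS mice 1-1, 1-3, 2-1 and 2-5 had 6.95, 7.22, 7.00 and 6.73 CPM. The PBS mice were tightly grouped, the LLC1 mice were spread below them, and LLC1 2-2 came close to the PBS range without entering it. Cd14 thus had a log2 fold change of -0.54 (SE 0.15, 95% interval -0.86 to -0.21, FDR 0.0453 by edgeR, exact permutation p = 0.0286). The call was close to the threshold and was lost with the covariate (FDR 0.0506) and without any single mouse except LLC1 2-2 or PBS 1-1 (FDR between 0.0547 and 0.124).

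Cx3cr1 (chr9:119901616-120068283) encodes the receptor for fractalkine, which guides and sustains monocytes and macrophages. It was the lowest of the markers, with 29 to 154 counts a mouse. Its level was 3.24, 1.91, 2.24 and 2.72 CPM in LLC1 1-2, 1-3, 1-5 and 2-2 and 5.06, 3.23, 9.06 and 3.90 CPM in PBS 1-1, 1-3, 2-1 and 2-5. The groups met at LLC1 1-2 and PBS 1-3, and PBS 2-1 stood above the other PBS mice. The log2 fold change of -1.08 (SE 0.30, 95% interval -1.74 to -0.42, FDR 0.0466 by edgeR) was the largest among the markers, with an exact permutation p of 0.0571. It was -0.68 (FDR 0.0974) without PBS 2-1, and the FDR also passed 0.05 with limma-voom (0.0675), with the covariate (0.0668) and without any of the 4 LLC1 mice (0.0691 to 0.124).

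**Figure D2:**
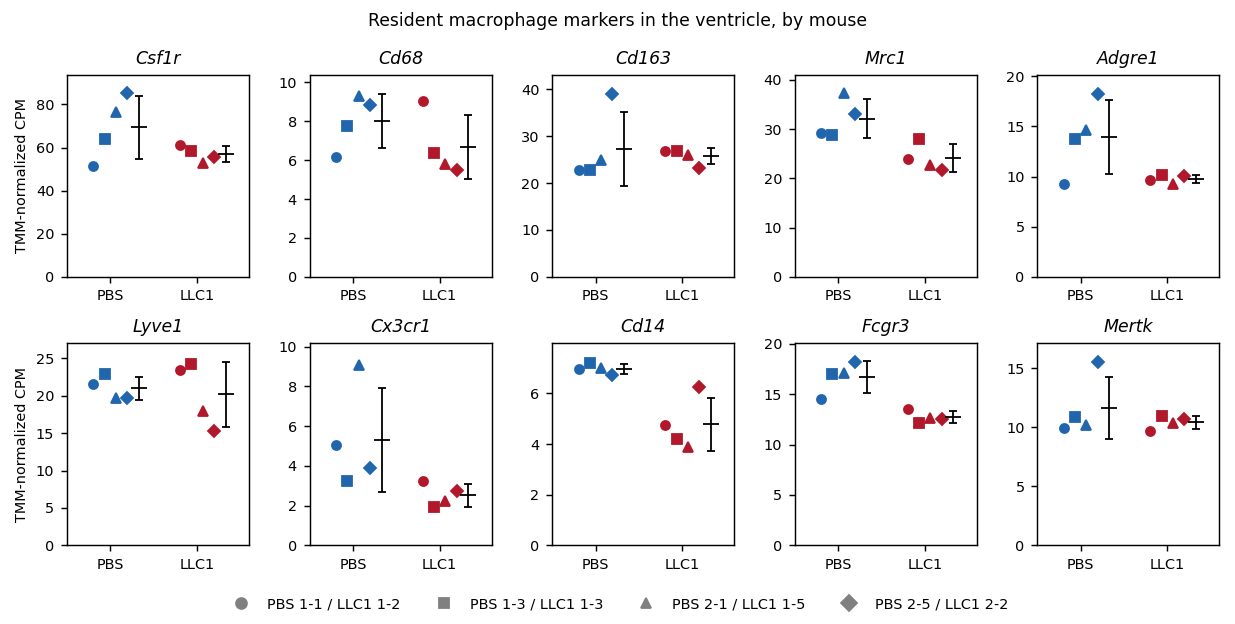
TMM-normalized CPM (y axis, from 0) of the 10 markers in each of the 4 PBS mice (blue) and 4 LLC1 mice (red), with the group mean and SD as a bar with whiskers. Mrc1, Cd14 and Fcgr3 have every LLC1 mouse below every PBS mouse, and the highest PBS value of Cd163 and Mertk is that of PBS 2-5.

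Groups did not overlap for 3 of the 10 markers (Mrc1, Cd14 and Fcgr3, all lower in the tumor-bearing mice), against 8.27% of all genes lower and 8.89% higher. Adgre1 (chr17:57358686-57483529), which encodes the F4/80 antigen used to identify mouse macrophages, fell just outside the calls. It was even in the tumor-bearing mice, at 9.66, 10.1, 9.30 and 10.1 CPM in 1-2, 1-3, 1-5 and 2-2, and spread in the PBS mice, at 9.27, 13.7, 14.7 and 18.2 CPM in 1-1, 1-3, 2-1 and 2-5. PBS 1-1 was just below every LLC1 mouse, and the other 3 PBS mice were above all of them. Adgre1 had a log2 fold change of -0.53 (SE 0.16, 95% interval -0.88 to -0.18, FDR 0.0619 by edgeR, exact permutation p = 0.143). Its FDR was 0.00254 without PBS 1-1, 0.0310 with DESeq2 and 0.0338 when all genes with at least 1 count were kept.

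Csf1r, on chromosome 18, encodes the receptor for CSF1 and IL-34 on which the survival of most tissue macrophages depends. It had 61.3, 58.2, 52.8 and 55.5 CPM in LLC1 1-2, 1-3, 1-5 and 2-2 and 51.5, 64.0, 76.5 and 85.2 CPM in PBS 1-1, 1-3, 2-1 and 2-5. The lowest value of all 8 belonged to PBS 1-1, and the other 3 PBS mice were above every LLC1 mouse. The means were 57.0 ± 3.63 and 69.3 ± 14.7 CPM, with a log2 fold change of -0.29 (SE 0.13, 95% interval -0.56 to -0.01, FDR 0.177 by edgeR, exact permutation p = 0.200). Without PBS 1-1 it was -0.40 with an FDR of 0.0128. Of the annotated exon bases of Csf1r 15.1% (16.4% of those within the gene span of the count table) lie over exons of Hmgxb3 on the opposite strand, and reads there cannot be told apart where counting did not use strand.

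Cd68 (chr11:69664213-69666153) encodes a lysosomal membrane protein of phagocytes. It ranged from 5.48 CPM in LLC1 2-2 to 9.06 CPM in LLC1 1-2, which nearly spanned the PBS range of 6.18 in PBS 1-1 to 9.30 in PBS 2-1. Its log2 fold change was -0.28 (SE 0.17, 95% interval -0.67 to 0.10, FDR 0.334 by edgeR, exact permutation p = 0.286).

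Mertk (chr2:128698956-128802894), a receptor tyrosine kinase for the uptake of dying cells, was 9.66 to 10.9 CPM in the LLC1 mice and 9.95, 10.9, 10.2 and 15.5 CPM in PBS 1-1, 1-3, 2-1 and 2-5. Only PBS 2-5 departed from the others. The log2 fold change was -0.17 (SE 0.14, 95% interval -0.47 to 0.14, FDR 0.487 by edgeR, exact permutation p = 0.600), and it was 0.0061 without PBS 2-5.

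Cd163 (chr6:124304651-124330527), the receptor that clears complexes of hemoglobin with haptoglobin, showed the same feature. It was 26.9, 26.9, 26.1 and 23.2 CPM in LLC1 1-2, 1-3, 1-5 and 2-2 and 22.7, 22.7, 24.9 and 39.0 CPM in PBS 1-1, 1-3, 2-1 and 2-5. The log2 fold change was -0.09 (SE 0.15, 95% interval -0.43 to 0.24, FDR 0.747 by edgeR, exact permutation p = 0.971), and it turned to 0.13 without PBS 2-5.

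Lyve1 (chr7:110850607-110862953) encodes a hyaluronan receptor carried both by resident macrophages and by lymphatic endothelium. The LLC1 mice 1-2, 1-3, 1-5 and 2-2 had 23.4, 24.3, 17.9 and 15.2 CPM and the PBS mice 1-1, 1-3, 2-1 and 2-5 had 21.6, 22.9, 19.7 and 19.7 CPM. The LLC1 values ran both above and below the PBS range. Lyve1 had a log2 fold change of -0.06 (SE 0.14, 95% interval -0.35 to 0.24, FDR 0.832 by edgeR, exact permutation p = 0.686), which was 0.055 without LLC1 2-2. The 6 lymphatic endothelial markers had 0 calls by edgeR and a median log2 fold change of 0.03, with 4 of the 6 above 0 (range -0.20 to 0.47), and 1 was called higher with DESeq2, with all genes of at least 1 count and without LLC1 1-2. Their summed level ran from 133 to 177 CPM in the LLC1 mice and from 126 to 171 CPM in the PBS mice. The most abundant were Prox1, at 80.1 ± 7.21 and 80.1 ± 13.3 CPM, and Flt4 at 24.7 ± 5.58 and 25.9 ± 2.95 CPM. Prox1 thus made up much of the sum, and whether its level came from lymphatic endothelium alone was not tested. How much of Lyve1 came from either cell type was not tested.

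Compared per kilobase of gene length, Csf1r was the most abundant marker in the PBS mice, at 14.2 ± 3.02 CPM per kb, followed by Fcgr3 at 9.62 ± 0.909, Lyve1 at 8.05 ± 0.608, Cd68 at 6.39 ± 1.10 and Cd163 at 6.09 ± 1.75 CPM per kb. Mrc1 came next at 5.03 ± 0.624, then Cd14 at 4.44 ± 0.129, Adgre1 at 4.31 ± 1.14, Mertk at 2.68 ± 0.605 and Cx3cr1 at 1.42 ± 0.698 CPM per kb. Of these neighbors only Csf1r and Fcgr3, and Lyve1 and Cd68, had ranges over the PBS mice that did not overlap. The order was the same in the LLC1 mice but for Lyve1 (7.76 ± 1.67 CPM per kb) ahead of Fcgr3 (7.34 ± 0.348) and Cd163 (5.74 ± 0.383) ahead of Cd68 (5.32 ± 1.297).

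The markers shared some of their differences between mice of a group. PBS 1-1 was below the mean of the other PBS mice for 8 of 10 markers, by a median of 0.26 on the log2 scale (lowest for Adgre1, highest for Lyve1). LLC1 1-5 was below the other LLC1 mice for 9 of 10 (median -0.13). PBS 2-5 and PBS 2-1 were above the other mice of their group for 7 of 10 each (medians 0.19 and 0.10), as was LLC1 1-2 (0.10), and LLC1 1-3, LLC1 2-2 and PBS 1-3 were divided 6 to 4. The medians over all genes lay between -0.01 and 0.02 in the 8 mice. When the log2 CPM of each marker was centered on its mean over the 8 mice and averaged over the 10 markers, the values were -0.06, -0.17, -0.28 and -0.21 in LLC1 1-2, 1-3, 1-5 and 2-2 and -0.02, 0.08, 0.31 and 0.34 in PBS 1-1, 1-3, 2-1 and 2-5. Every LLC1 mouse was below every PBS mouse on this average, though PBS 1-1 and LLC1 1-2 were close, and the pair of PBS mice coded 2 was above the pair coded 1. The labels do not say what the first number of the code stands for.

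**Figure D3:**
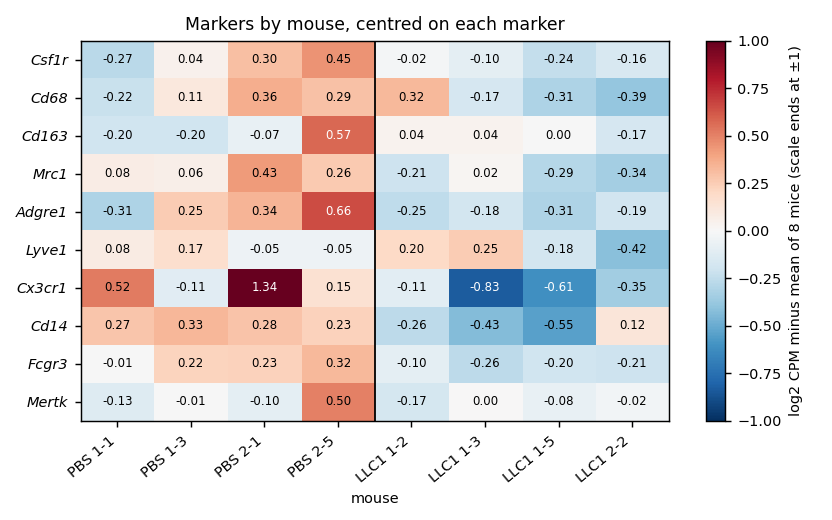
Log2 CPM of the 10 markers (rows) in the 8 mice (columns), each marker minus its own mean over the 8 mice, with blue below 0 and red above and the color scale ending at -1 and 1. Cx3cr1 in PBS 2-1 (1.34) is the highest value, Adgre1 in PBS 2-5 (0.66) the next, and LLC1 1-5 has no value above 0.

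The genes most like this average over the 8 mice were Vtn, which encodes the adhesive glycoprotein vitronectin, with a root mean square difference of 0.041 on the log2 scale, then Itm2a (0.058), the septin gene Sept5 (0.063), the actin regulator gene Abi2 (0.064) and the scaffold gene Homer3 (0.065). They were picked from 15056 genes, of which the median difference was 0.272, and all values come from the same 8 libraries. The markers themselves, each a part of the average, ranged from 0.072 for Fcgr3, 0.106 for Csf1r and 0.115 for Mrc1 to 0.271 for Lyve1 and 0.502 for Cx3cr1. Fcgr3, Csf1r and Mrc1 thus lay closest to the average of the markers and Cx3cr1 farthest from it.

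To ask whether any marker changed relative to Csf1r within a library, where scaling cancels, the log2 ratio of each of the other 9 markers to Csf1r was compared between groups. No ratio separated the groups, against 1.01% of all genes with every LLC1 mouse lower and 13.1% with every LLC1 mouse higher. At these shares 0 of 9 does not show that the markers moved together with Csf1r. All 9 ratios also depend on Csf1r, which may hold reads of Hmgxb3 and was lowest in PBS 1-1. The difference (LLC1 minus PBS) was -0.72 for Cx3cr1 (exact permutation p = 0.143), -0.31 for Cd14 (p = 0.171), -0.21 for Adgre1 (p = 0.0571), -0.15 for Mrc1 (p = 0.286) and -0.13 for Fcgr3 (p = 0.286) by the same exact test. It was -0.02 for Cd68 (exact p = 0.914), 0.12 for Mertk (p = 0.514), 0.18 for Lyve1 (p = 0.457) and 0.21 for Cd163 (p = 0.229). Adgre1 had an even ratio within each group, at -2.54 ± 0.09 in the LLC1 mice and -2.32 ± 0.12 in the PBS mice (SD, n = 4), and with a prior count of 2 in place of 0.5 its groups separated (exact permutation p = 0.0286). In ratio to the leukocyte common antigen gene Ptprc, which was itself called lower, the difference was positive for all of the markers except Cx3cr1 (-0.21), with 0.51 for Csf1r (exact p = 0.0571) and overlapping groups throughout, while 70.8% of all genes had every LLC1 mouse higher in ratio to Ptprc.

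**Figure D4:**
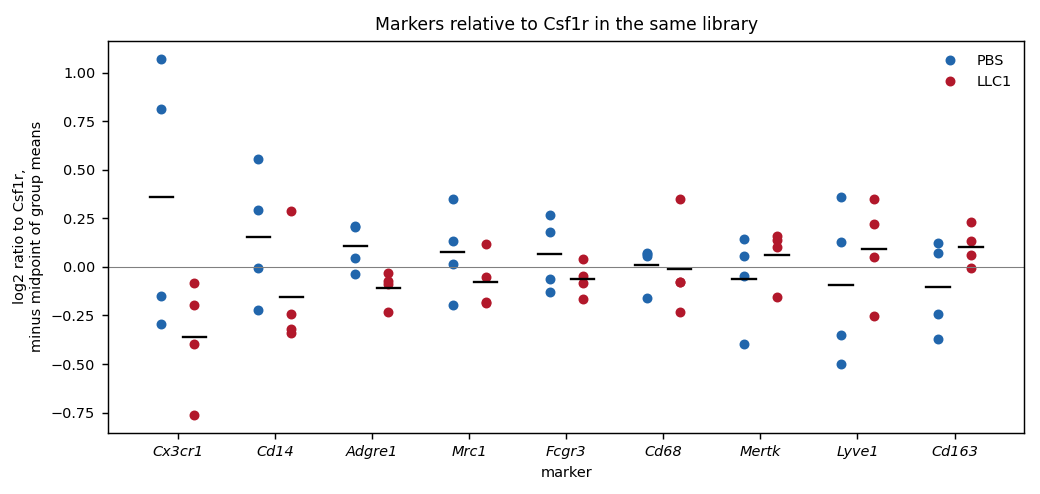
Log2 ratio of 9 markers to Csf1r in each PBS mouse (blue) and LLC1 mouse (red), minus the midpoint of the group means (y axis), with the group means as black bars. The groups overlap for all 9 markers, by the least for Adgre1, and Cx3cr1 has the widest spread.

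Of the 15 genes listed as ligands and signaling partners of the markers, 14 were tested, 3 were called lower and 0 higher, with a median log2 fold change of -0.30. The calls were 21.4% of those tested, against 4.61% of all genes called lower. Csf1, the growth factor that binds Csf1r, was 57.9, 45.3, 43.4 and 49.8 CPM in LLC1 1-2, 1-3, 1-5 and 2-2 and 67.1, 67.4, 71.9 and 53.9 CPM in PBS 1-1, 1-3, 2-1 and 2-5. Its groups overlapped through LLC1 1-2 and PBS 2-5, and its log2 fold change was -0.41 (SE 0.11, FDR 0.0353 by edgeR). The other ligand of the receptor, Il34, measured 4.01 ± 0.214 CPM against 4.08 ± 0.453 CPM (log2 fold change -0.02, FDR 0.954 by edgeR).

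Cx3cl1, which encodes fractalkine, the ligand of Cx3cr1, was 7.14, 8.56, 7.11 and 9.71 CPM in the LLC1 mice and 11.0, 11.5, 11.5 and 11.4 CPM in the PBS mice, in the same order of mice. The groups did not overlap, and its log2 fold change was -0.48 (SE 0.11, FDR 0.0258 by edgeR). Hmox1, the heme oxygenase that degrades the heme taken up through Cd163, was 8.004, 7.11, 7.66 and 7.80 CPM in the LLC1 mice and 9.01, 11.6, 13.2 and 14.3 CPM in the PBS mice. It too had every LLC1 mouse below every PBS mouse, with a log2 fold change of -0.67 (SE 0.13, FDR 0.0123 by edgeR). Receptor and ligand genes were thus both called lower for Cx3cr1, whereas for Csf1r the ligand gene Csf1 was called and the receptor gene was not.

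Among the partners not called, the haptoglobin gene Hp (log2 fold change 1.06, FDR 0.171 by edgeR) had 3 to 19 counts a mouse. The bridging ligands of Mertk measured 161 ± 2.72 against 150 ± 12.9 CPM for Gas6 (log2 fold change 0.10) and 21.6 ± 1.70 against 24.5 ± 1.58 CPM for Pros1 (-0.19). Of the partners of Cd14 in lipopolysaccharide sensing, Tlr4 had a log2 fold change of 0.02, Lbp of -0.03 and the TLR4 co-receptor gene Ly96 of -0.53 (FDR 0.142 by edgeR). The hyaluronan synthase genes, whose product Lyve1 binds, were low, with Has2 at a log2 fold change of -0.86 (FDR 0.121 by edgeR) and Has1, at 2 to 11 counts, not tested. The signaling adapter of Fcgr3, Fcer1g, had a log2 fold change of -0.43 (FDR 0.0734 by edgeR), the related adapter Tyrobp -0.26, and Spi1, which encodes PU.1, -0.33 (FDR 0.239 by edgeR). With single mice left out the number of partners called lower was 1 without LLC1 1-3, LLC1 1-5, PBS 1-3 or PBS 2-1 and 5 without PBS 1-1.

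Other genes of tissue-resident macrophages gave 4 called lower and 0 higher of 25 tested (16.0% lower, against 4.61% of all genes). The median was -0.29, and 22 of the 25 log2 fold changes were below 0, as were 52.1% of those of all genes. The called genes were the activation marker gene Cd83 (log2 fold change -0.89, FDR 0.00791 by edgeR), the platelet factor 4 gene Pf4 (-0.59, FDR 0.0104), Fcrls (-0.53, FDR 0.0117) and Ms4a7 (-0.96, FDR 0.0197), and in each the groups did not overlap. Of the 28 genes listed, Cd209f, Cd209g and Vsig4 had at most 12 counts in any mouse and were not tested. The number called was 7 without PBS 1-1.

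Of the genes related to single markers, the Fc gamma receptor list gave Fcgr2b as its only call of 5 genes tested (2 without PBS 1-1), with a median of -0.43. Of 12 scavenger and lectin receptors 8 were tested, and only Clec4n, which encodes dectin-2, was called lower (0.628 ± 0.162 against 2.34 ± 0.808 CPM, log2 fold change -1.93, FDR 0.00457 by edgeR), and the median was -0.02. Their summed level went the other way, at 2320 to 2422 CPM in the LLC1 mice and 2197 to 2270 CPM in the PBS mice, without overlap. Genes of dead-cell uptake other than Mertk had 1 call in 11 tested, Elmo1, which encodes an engulfment adapter (-0.53, FDR 0.0267 by edgeR), and those of bacterial sensing had 1 in 12, Tlr2 (-0.62, FDR 0.0281 by edgeR), with medians of -0.14 and -0.07. Without LLC1 1-2, LLC1 1-3, LLC1 1-5, PBS 1-3 or PBS 2-1 neither list had a gene called lower, bacterial sensing also had 0 without LLC1 2-2, dead-cell uptake had 2 without PBS 2-5, and both had 3 without PBS 1-1. Dead-cell uptake also had 2 called lower with scaling to total counts, DESeq2 or the covariate, and with the covariate 1 gene each of dead-cell uptake and of the scavenger receptors was called higher. In the main fit the single call was 20% of the Fc gamma receptor list, 12.5% of the scavenger list, 9.09% of dead-cell uptake and 8.33% of bacterial sensing. Over all genes 4.61% were called lower, so 1 call says little about lists this short.

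Markers of other leukocytes were examined beside the resident markers, since bulk ventricle holds them too. The 16 pan-leukocyte genes, all tested, gave 6 called lower and 0 higher, with a median of -0.60, and were led by the actin-bundling gene Lcp1 (16.8 ± 1.38 against 30.1 ± 2.39 CPM, log2 fold change -0.85, FDR 0.000489 by edgeR) and by Ptprc (-0.77, FDR 0.00419), Cd53 (-0.69, FDR 0.0260) and Hcls1 (-0.67, FDR 0.0282). Their summed level was 125 to 138 CPM in the LLC1 mice, 137 CPM in PBS 1-1 and 183 to 191 CPM in the other PBS mice, so PBS 1-1 was low for these genes as it was for 8 of the markers. The number called was 2 without LLC1 1-2, LLC1 1-3, LLC1 1-5 or PBS 2-1, 3 without LLC1 2-2 or PBS 2-5, and 10 without PBS 1-1. With all mice the 6 calls were 37.5% of the pan-leukocyte genes, against 4.61% of all genes called lower. The 10 resident markers summed to 164 to 185 CPM in the LLC1 mice and to 177 to 249 CPM in the PBS mice, where 177 CPM was again PBS 1-1.

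Of 14 markers of recruited monocytes, 8 were tested, with Ccr2 (1.61 ± 0.329 against 3.19 ± 1.11 CPM, log2 fold change -0.99, FDR 0.0362 by edgeR) and Itgax (-1.08, FDR 0.0422) called lower and Ly6c2 called higher (0.93, FDR 0.00187). Ly6c2 shares 595 bases at 98.3% identity with Ly6c1, so its counts are uncertain. Neither Ccr2 nor Itgax was called without LLC1 1-2, LLC1 1-3, LLC1 1-5, PBS 1-3 or PBS 2-1. The monocyte list had 1 gene called lower without LLC1 2-2 or PBS 2-5 and with scaling to total counts, DESeq2 or the covariate. All 7 class II antigen presentation genes had log2 fold changes below 0 (median -0.51), as had 52.1% of all genes, and H2-Aa was called lower (-0.59, FDR 0.0374 by edgeR). Calls lower were 25% of the monocyte markers tested and 14.3% of the class II genes, against 4.61% of all genes. The class II number was 0 without LLC1 1-3, LLC1 1-5, LLC1 2-2, PBS 1-3 or PBS 2-1, 2 without PBS 2-5 and 6 without PBS 1-1, and it was 3 with DESeq2 or with all genes of at least 1 count and 2 with the covariate.

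Of 11 neutrophil markers 4 were tested, and S100a8 (0.888 ± 0.244 against 0.279 ± 0.228 CPM, FDR 0.0337 by edgeR) and S100a9 (1.13 ± 0.244 against 0.353 ± 0.167 CPM, FDR 0.0109) were called higher on 2 to 22 counts a mouse, while the 7 others, with Ly6g among them, had at most 8 counts. The neutrophil list had 1 gene called higher when any single mouse except PBS 1-1 was left out. Of 9 dendritic cell markers 2 were tested, and Zbtb46, which endothelial cells also express, was called lower (-0.50, FDR 0.00397 by edgeR). The pair summed to 21.6 to 25.2 CPM in the LLC1 mice and to 30.2 to 35.4 CPM in the PBS mice, without overlap. The T, B and natural killer cell markers had 2 of 13 tested, Cd4 (log2 fold change -0.43) and Cd79b (-0.41), and 0 called, with the others at 14 counts or fewer. Of 7 mast cell markers 5 were tested, and only Kit, which is not restricted to mast cells, was called lower (-1.66, FDR 0.00419 by edgeR), the list median being 0.58 and the summed level 3.57 to 9.36 CPM against 6.86 to 16.7 CPM. Calls lower were 50% of the 2 dendritic and 20% of the 5 mast cell markers tested, against 4.61% of all genes. For the neutrophil calls, 4.12% of all genes were called higher.

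Among cells of the heart wall, 4 of 7 fibroblast markers were called lower, namely Lum (log2 fold change -0.62, FDR 0.00105 by edgeR), Col3a1 (-0.98, FDR 0.00683), Col1a2 (-0.63, FDR 0.0198) and Col1a1 (-0.60, FDR 0.0456), with a median of -0.60. Of 8 blood endothelial markers Kdr (-0.61, FDR 0.00132 by edgeR) and Emcn (-0.31, FDR 0.0205) were called lower, with a median of -0.22. Calls lower were 57.1% of the fibroblast and 25% of the blood endothelial markers, against 4.61% of all genes. The 7 pericyte and smooth muscle markers had 0 calls by edgeR (Rgs5 -0.21 and Abcc9 -0.02, median -0.09; 1 called lower with scaling to total counts, DESeq2 or all genes of at least 1 count, and without LLC1 1-5 or PBS 2-5), as did the 5 red cell markers (Hbb-bs 0.35 and Hba-a1 0.44, median 0.38), while the 5 adipocyte markers had at most 28 counts and were not tested. All 7 log2 fold changes of the pericyte and smooth muscle markers were below 0, as were 52.1% of those of all genes. The summed level of these 7 markers was 1293 to 1331 CPM in the LLC1 mice and 1390.4 to 1596 CPM in the PBS mice, without overlap. Of 8 cardiomyocyte markers Myh6 was called higher (0.24, FDR 0.0209 by edgeR), against 4.12% of all genes called higher, and the median was 0.16. The number called higher was 0 with scaling to total counts only, 3 with DESeq2 and 2 with limma-voom or the covariate, and Myh6 shares 191 bases at 98.4% identity with Mhrt, so part of its counts is uncertain. Fibroblast calls numbered 2 without LLC1 1-2, LLC1 1-3, LLC1 1-5 or PBS 1-3, blood endothelial calls 1 without LLC1 1-3, LLC1 2-2 or PBS 1-3 and 5 without PBS 1-1, and cardiomyocyte calls 0 without LLC1 1-3, LLC1 1-5, PBS 1-3 or PBS 2-1 and 3 without PBS 1-1. The macrophage markers were therefore not the only non-cardiomyocyte genes with lower values in the tumor-bearing mice, and the part of fibroblast, endothelial or other leukocyte content in the marker values was not tested.

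**Figure D5:**
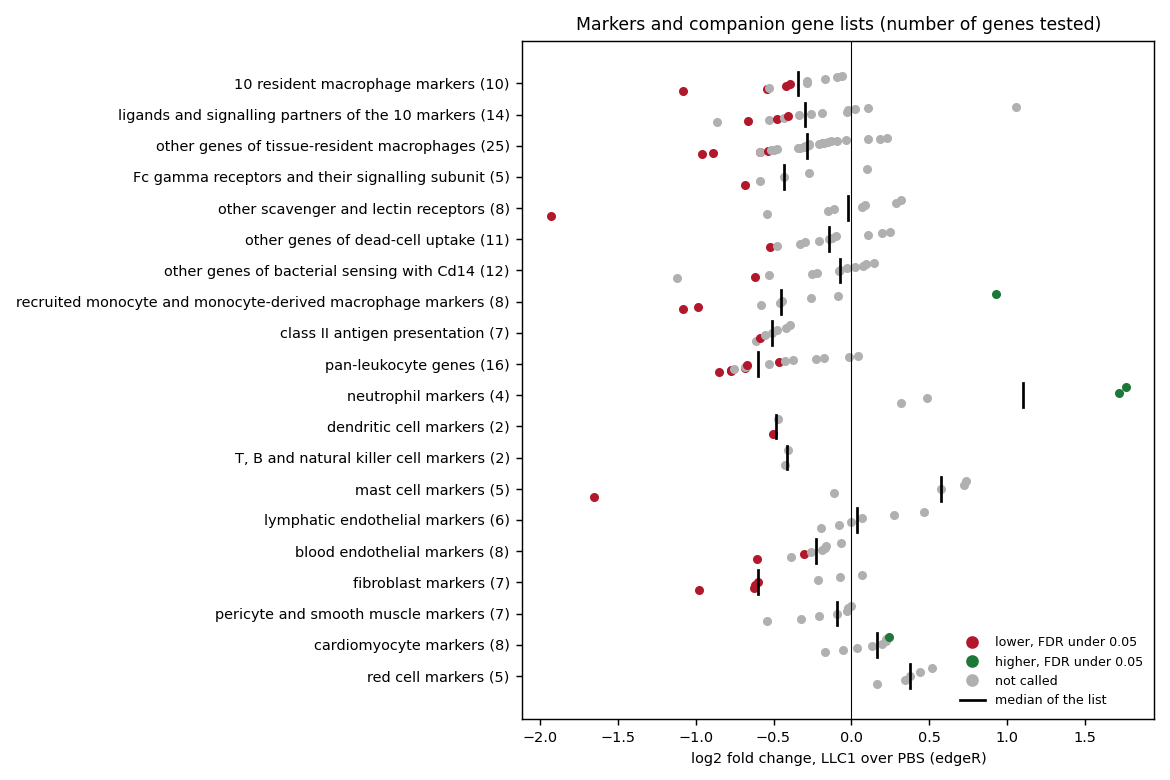
Fitted log2 fold change (LLC1 over PBS, x axis) of each tested gene in the 10 markers and in the companion lists that had a tested gene (rows, number tested in parentheses), in red where called lower, green where called higher and gray where not called by edgeR at an FDR under 0.05, with the list median as a black line. The medians of the 10 markers (-0.34), pan-leukocyte genes (-0.60) and fibroblast markers (-0.60) lie left of 0, and that of the cardiomyocyte markers (0.16) lies to the right.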

How the data were processed

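Ventricular RNA of 8 male mice was sequenced by the authors as paired 150-base reads of TruSeq V2 libraries. The values are raw read counts per gene that the authors deposited without normalization. The submitters' processing notes name CASAVA, STAR, featureCounts and genome build mm10; versions, gene annotation and strand setting are not given in the sources used here. Groups came from the stated treatment, and each sample is a mouse of its own.

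Counts were compared in edgeR 4.0.16 (R 4.3.3): filterByExpr (16111 genes kept), TMM factors, glmQLFit and glmQLFTest with no covariate, Benjamini-Hochberg adjustment over all genes tested, FDR under 0.05. Standard errors came from the F statistic, and 95% intervals from the moderated degrees of freedom. CPM values are TMM-normalized, and log2 CPM used a prior count of 2. Exact permutation tests (two-sided) ran over the 70 arrangements of the mice, and ratios to Csf1r used a prior count of 0.5. Lists are described by counts and medians, with no set test. Clec7a was left out because its symbol belongs to more than 1 gene ID. Selenop, like Adgre1, is listed under an older symbol and was matched by gene ID.

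The genes named are the 10 markers, their 15 ligands and partners, up to 4 called genes of lowest FDR in each other list (or, where none was called, the 2 of highest mean CPM), the 5 genes most like the markers' average, and genes that may share reads with a named gene. List members named because they were untested were chosen after their counts were seen. The members and lists were chosen with earlier results of these data known. Alternatives were upper-quartile and total-count scaling, DESeq2 1.42.0, limma-voom (limma 3.58.1), all genes with at least 1 count, the first number of the mouse code as covariate, and each mouse left out. Exon overlap used GENCODE M21, and similar transcripts were searched with BLAST 2.17.0 (at least 97% identity over 150 bases; closest matches below it are given). On simulated data the fit called 62 of 100 genes changed 1.5-fold and 97 of 100 changed 2-fold, with 15 unchanged genes called. Smaller changes were not simulated, so a marker not called may still have changed.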

Additional observations from a re-analysis of the deposited data

Results flagged for a closer look

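In PBS 2-5 the Cd163 level of 39.0 CPM stood apart from the other PBS mice, which lay between 22.7 and 24.9 CPM, and its gap to the next mouse was 0.866 of the range of the group. The Mertk level of 15.5 CPM in the same mouse stood apart likewise from 9.95 to 10.9 CPM (0.836 of the range). Cd163 and Mertk were the markers whose log2 fold change changed sign when PBS 2-5 was left out. The summed level of the pan-leukocyte genes was 137 CPM in PBS 1-1 and 183 to 191 CPM in the other PBS mice (0.862 of the range). Each exceeds Dixon's 95% limit for groups of 4 mice, among 60 groups examined, and chance puts about 1 in 20 groups past it.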

How the results depend on the processing

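With upper-quartile scaling and total-count scaling 4 markers were called lower (4.47% and 4.92% of all genes), with DESeq2 5 (Adgre1 added; 4.93%), with limma-voom 3 (Cx3cr1 lost; 4.36%), with all genes of at least 1 count 5 (Adgre1 added; 2.7%) and with the covariate 2 (5.18%). With single mice left out the number ran from 0 to 6, while the share of all genes called lower ran from 2.02% to 6.38%, and the number of markers called higher was 0 in every fit. Total-count scaling moved the median of all genes from -0.01 to -0.06. Of the 140 refits of single markers, 110 kept their direction and side of the threshold, 23 lost the call in the same direction and 4 gained it. In 3 the direction changed, none of them called: Cd163 (-0.18 to 0.13 over the fits with a mouse left out) and Mertk (-0.24 to 0.0061) were above 0 without PBS 2-5, and Lyve1 (-0.16 to 0.055) without LLC1 2-2. The cause was not tested. Of the ratios to Csf1r, 1 separated the groups (lower) with a prior count of 2 (as 157 of 16110 genes did), and 0 to 2 did with single mice left out, with 2 without LLC1 2-2 (1.7% of all genes lower) and 1 without PBS 1-1 (1.13%). No paired analysis was possible because the groups share only 1 replicate code (1-3), carried by different mice. Depth limits Cx3cr1 most, at 29 counts in the lowest mouse.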
